A study of Mus musculus with 6 samples.

Results

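The tubulin tyrosine ligase family was examined in testes of mice with and without Ttll5. Members were the family genes for which a probe set of the array table carried their symbol and no other, and 10 genes met this rule, Ttll5, Ttll1, Ttll4, Ttll6, Ttll9, Ttll13, Ttll3, Ttll8, Ttl and Ttll12, with 171 of the 179163 probe sets that named 1 gene, among 15792 genes in all. A probe set is a group of short probes for 1 piece of a transcript, and gene values below are averages of log2 readings over all probe sets of a gene. The family genes Ttll2, Ttll7, Ttll10 and Ttll11 were not analysed here, so statements on relatives of Ttll5 cover only the other 9 members.

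RNA from testes was measured on exon arrays, 1 per sample, in 3 wild-type (WT) samples and 3 samples labelled Ttll5/Stamp KO (KO below; STAMP is another name of Ttll5). Both groups came from littermates matched for age, on a mixed C57BL/6, 129/SvEv and FVB/N background, and the labels name no treatment. The sources used here do not say how the Ttll5 allele was made, how old the mice were, or whether an array held 1 animal or a pool. The series title ties loss of the gene to malformed sperm and infertility.

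Tubulin tails carry amino acids that are added or removed after the protein is made, and the family supplies several of the enzymes. Glutamylases (Ttll1, Ttll4, Ttll5, Ttll6, Ttll9 and Ttll13 here) add glutamate side chains to tubulin tails, glycylases (Ttll3, Ttll8) add glycine to the same tails, and Ttl puts back the tyrosine at the end of soluble alpha-tubulin. Sperm tails are rich in these side chains, and their axonemes depend on them for a regular beat. Ttll12 carries the family's domain but is not known as a typical ligase.

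The tissue label was checked against markers. Protamines and transition proteins of spermatids (Prm1, Prm2, Tnp1, Tnp2) had gene values of 12.1 to 13.1 in both groups, while 4 of 4 liver genes and 3 of 4 epididymis genes lay below the arrays' lower quartiles (4.59 to 4.67). Array medians were 6.72 to 6.77. The number of arrays limits the precision, and an exact permutation test of 3 against 3 cannot go below p = 0.1, so single genes were tested with limma (two-sided, Benjamini-Hochberg adjustment over all genes or all probe sets, threshold 0.05). In whole testis, fewer cells of a type and less RNA per cell cannot be told apart.

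Ttll5, a glutamylase that starts side chains, mainly on alpha-tubulin, fell in KO testes. The WT arrays read 11.16, 11.14 and 11.16 for the gene and the KO arrays 9.58, 9.49 and 9.53, with every KO array far below every WT array. The means were 11.15 ± 0.015 and 9.53 ± 0.043 (SD, n = 3 each). The difference of -1.62 had a 95% confidence interval of -1.77 to -1.47 (limma adjusted p = 4.3e-05) and left 32.6% of the WT value. In the same test 0.0697% of all genes passed, and 0.0253% passed with lower values in KO. The drop was larger than the spread within either group by far, since neither group's SD reached 0.05. The 32.6% averages all 33 probe sets of the gene. Without the 2 described next, the other 31 had a median of 42.3% of WT.

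**Figure D1:**
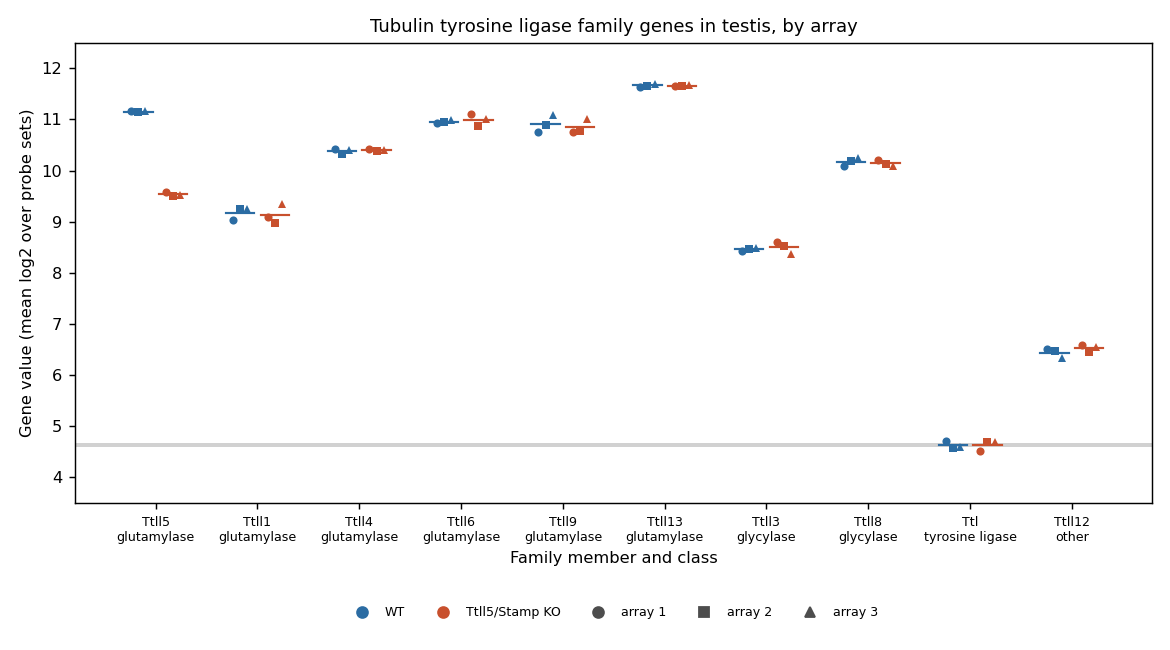
Gene values (mean log2 over probe sets) of the 10 family members in each of 3 WT and 3 Ttll5/Stamp KO arrays, with horizontal lines at group means and a grey band at the arrays' lower quartiles. Ttll5 is the member whose groups are apart, at 11.15 in WT and 9.53 in KO, and the groups of the other 9 overlap.

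The fall was not even between the gene's probe sets. In all 33 Ttll5 probe sets the highest KO array stayed under the lowest WT array, an order found in 5.27% of the table's probe sets. Probe set 4537529 read 11.38, 11.46 and 11.53 in WT against 3.12, 3.30 and 3.33 in KO. Its KO values lie near the 5th percentile of the arrays, 3.13 to 3.20. Probe set 4927582 read 10.45, 10.44 and 10.49 in WT against 4.02, 4.45 and 4.09 in KO, below the lower quartile of every array. Both pieces of the transcript were thus bright in WT and at the level of the dimmest part of the table in KO.

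No Ttll5 probe set other than these 2 departed from its fellows. Each probe set was compared with the mean of the gene's other probe sets, and departures were tested in limma over the 176693 probe sets of genes with at least 3. The first fell by 6.79 more than the rest (SE 0.13, limma adjusted p = 1.2e-05) and the second fell by 4.80 more (SE 0.16, adjusted p = 0.00026). Their KO readings lie at the dim end of the arrays and no detection calls were used, so background may limit both sizes, which are read as lower bounds, and the gene difference includes them. Of all probe sets tested, 0.0102% departed. The mean against which each of the other 31 Ttll5 probe sets was compared included these 2. The test therefore cannot tell whether those 31 fell evenly. Where these 2 lie in the gene is not known here, because the annotation used names genes without exons.

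Signal from the other 31 Ttll5 probe sets remained in KO. Averaged per array they read 11.17, 11.15 and 11.17 for WT against 9.97, 9.86 and 9.90 for KO. The 3 KO arrays lay close together, more than a log2 unit below WT. Single differences ran from -1.78 to -0.80 with a median of -1.24, and in 29 of the 31 the KO mean lay above the median of every array. The largest of these differences was that of probe set 5537053, which read 7.91, 7.96 and 8.05 in WT against 6.51, 6.11 and 5.96 in KO. The smallest was that of 4840494, with 11.44, 11.33 and 11.57 in WT against 10.66, 10.59 and 10.68 in KO, which left 57.3% of WT. The dimmest in WT, 5143384, went from 5.64 ± 0.084 to 4.27 ± 0.21 (SD, n = 3 each) and in KO lay under the lower quartile of the arrays.

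The size of the difference varied with brightness among these 31. Probe sets with higher WT means had smaller differences, with a Pearson correlation of 0.49 and a Spearman correlation of 0.48 between WT mean and KO minus WT. The points are probe sets of 1 gene on the same 6 arrays, so the value is a description. The 10 dimmest in WT had a median difference of -1.36 and the 10 brightest one of -1.14.

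Single probe sets were tested in a limma fit over all 188590, in which 0.0382% passed. Of the 33 of Ttll5, 19 passed, the 2 above and 17 of the other 31, and the 14 that did not had adjusted p-values of 0.050 to 0.28. All 33 had an unadjusted limma p under 0.05, against 5.36% of the table, and the highest among the 31 was 0.0002. The count of 19 rested on having all 6 arrays, since it was 2 without WT 1, WT 2, WT 3, KO 2 or KO 3 in turn, and 3 without KO 1. The first 2 probe sets were among the called ones in each of these 6 fits, and all 31 others stayed lower in KO. With no moderation of variances 1 Ttll5 probe set was called and departed, and with each array's lower quartile as a covariate 3 were called.

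**Figure D2:**
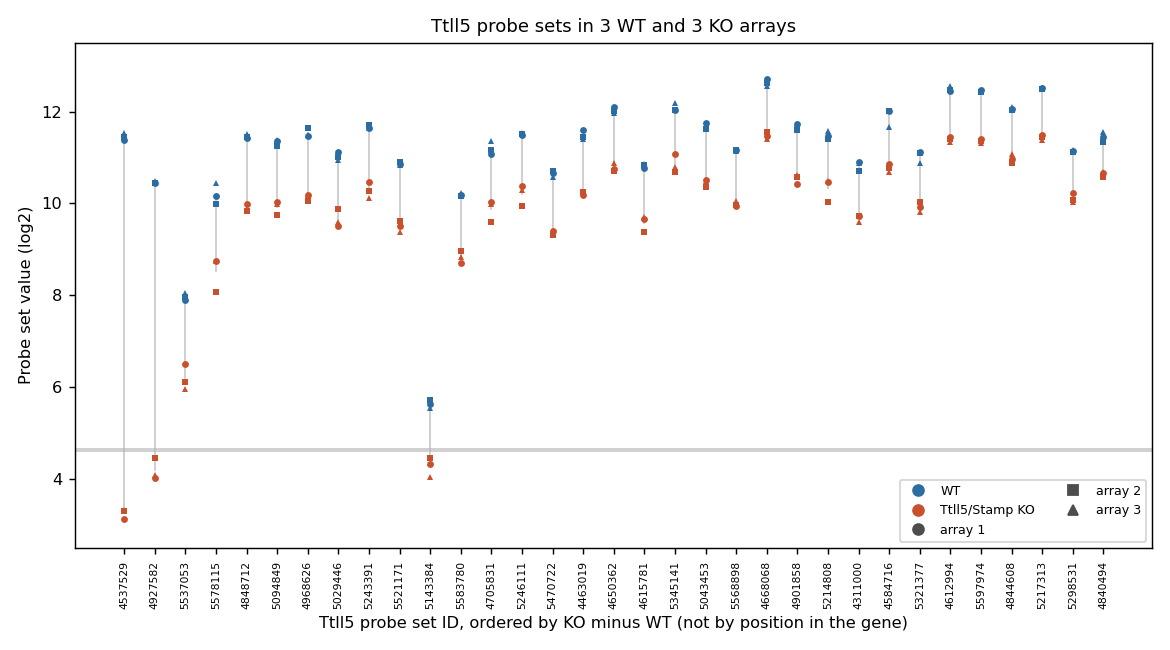
Log2 values of the 33 Ttll5 probe sets in 3 WT and 3 Ttll5/Stamp KO arrays, ordered by KO minus WT and not by position, with a grey band at the arrays' lower quartiles. The first 2 fall from above 10 to 3.25 and 4.19 on average, while the other 31 differ by -1.78 to -0.80.

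None of the 9 relatives passed the gene test in either direction, which 0.0697% of all genes passed. An unadjusted p under 0.05, which 6.05% of all genes had, was reached by 0 of the 9, and their groups did not separate in any case, against 11.2% of genes. Values were higher in KO for 5 and lower for 4, with a median difference of 0.0022 beside -0.0026 over all genes, and quantile normalization of the deposited values turned the signs of Ttl and Ttll13. Counts of 0 among 9 genes do not stand apart from the shares over all genes. No rise of any of these 9 relatives was called where Ttll5 fell. A p that misses the threshold does not show equal levels, so the interval of each difference is given. Its upper end allowed a rise of at most 10.1% (Ttll13) to 20.7% (Ttll12) of the WT value on the array scale. The levels below belong to different probes, so they are not ranked between genes.

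Among the glutamylases, Ttll1, the catalytic subunit of the tubulin polyglutamylase complex, varied most between arrays. It read 9.03, 9.24 and 9.24 in WT against 9.10, 8.96 and 9.34 in KO, where KO arrays held both the lowest and the highest value. The difference was -0.034 with an interval of -0.29 to 0.22 (limma adjusted p = 0.99). Ttll9, a glutamylase of motile cilia and sperm tails, read 10.75, 10.89 and 11.08 in WT against 10.76, 10.77 and 11.01 in KO, so that KO values lay inside the WT range. It differed by -0.062, from -0.31 to 0.19 (adjusted p = 0.98). These were the widest intervals of the 9.

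Ttll4, which starts glutamate chains, mainly on beta-tubulin, read 10.42, 10.32 and 10.41 in WT against 10.42, 10.38 and 10.39 in KO. The groups were nearly on top of each other, with a difference of 0.015 (interval -0.14 to 0.17). Ttll6, which lengthens glutamate chains, read 10.93, 10.94 and 10.99 in WT against 11.10, 10.87 and 11.01 in KO, a difference of 0.038 (interval -0.15 to 0.22). Its KO arrays spread on both sides of the WT arrays. Ttll13, another glutamylase that lengthens chains, read 11.64, 11.66 and 11.70 in WT against 11.65, 11.65 and 11.67 in KO. It had the narrowest interval, -0.16 to 0.14, around -0.0097, so a change of Ttll13 of more than about 10.4% down or 10.1% up lies outside it.

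Of the glycylases, Ttll3 starts glycine chains and read 8.43, 8.47 and 8.49 in WT against 8.61, 8.52 and 8.36 in KO. KO arrays lay above and below all WT arrays, and the difference was 0.032 (interval -0.16 to 0.22). Ttll8, which also starts glycine chains, read 10.09, 10.19 and 10.25 in WT against 10.22, 10.12 and 10.09 in KO, and differed by -0.033 (interval -0.21 to 0.14). Adjusted p-values were 0.99 and 0.98. In both enzymes, which share tubulin tails with the glutamylases, the groups overlapped.

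Ttl read 4.71, 4.58 and 4.60 in WT against 4.51, 4.68 and 4.69 in KO, at the lower quartile of the arrays. The difference was 0.0022 (interval -0.18 to 0.19, adjusted p = 1.0). In 4 of its 9 probe sets the WT and KO means were below the lower quartile of every array, which was so for 0 probe sets of the other relatives, and a change in a transcript this dim could be understated. Ttll12 read 6.51, 6.47 and 6.33 in WT against 6.58, 6.45 and 6.55 in KO, and had the largest difference of the 9, 0.091 (interval -0.090 to 0.27, adjusted p = 0.93), although without WT 3 it was 0.039, below the 0.054 of Ttll6. One KO array lay below the highest WT array, and groups overlapped.

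Read probe set by probe set, the relatives gave no call. Probe sets of a gene share the same arrays, so the counts below are a description. Of their 138 probe sets, 73 were higher and 65 lower in KO, with a median of 0.0028, and the median size of a difference was 0.058 beside 0.12 over the table. These probe sets were bright, with a median WT mean of 10.19 beside 6.73 over the table, and the part of brightness in that contrast was not tested. Groups did not overlap in 9 (5 higher, 4 lower), or 6.52%, against 10.2% of the table, where 4.97% were higher and 5.27% lower. A single one had an unadjusted p under 0.05 (0.725%, against 5.36%). None passed the adjusted threshold, beside 0.0382% of the table. None departed from the rest of its gene, beside 0.0102% of the probe sets tested for it. None differed by more than 0.5 in either direction, beside 7432 of the 188590 probe sets of the table. The lowest adjusted p was 0.89 for the level and 0.96 for departure.

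The probe set with the lowest p was 4859058 of Ttll12, which read 7.33, 7.57 and 7.66 in WT against 8.12, 7.72 and 7.92 in KO. All KO arrays lay above all WT arrays, by 0.40 on average (interval 0.04 to 0.76, unadjusted p = 0.032, limma adjusted p = 0.89). A second of Ttll12, 4452020, was also higher in all KO arrays, at 6.44, 6.09 and 6.16 against 6.04, 6.05 and 5.50. The other Ttll12 probe sets overlapped, and 6 of the 14 were lower in KO. The gene's median difference over probe sets was 0.0038.

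In Ttl, probe set 5225434 was lower in all KO arrays, at 4.73, 4.94 and 4.93 against 5.15, 5.24 and 5.03 in WT (-0.28, unadjusted p = 0.059). The other 8 Ttl probe sets overlapped. In Ttll3, 5023072 was lower in all KO arrays (7.89, 7.60 and 7.75 against 7.94, 7.91 and 8.06), while another was higher. The largest differences among all relatives without separated groups were those of 4782753 in Ttll1 (-0.45, SE 0.30) and 4554989 in Ttll8 (-0.37, SE 0.19), both with spreads within groups of similar size. Ttll6, Ttll13 and Ttll1 had 0 probe sets with separated groups, and in Ttll9 11 of 13 were lower in KO, by 0.14 at most.

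**Figure D3:**
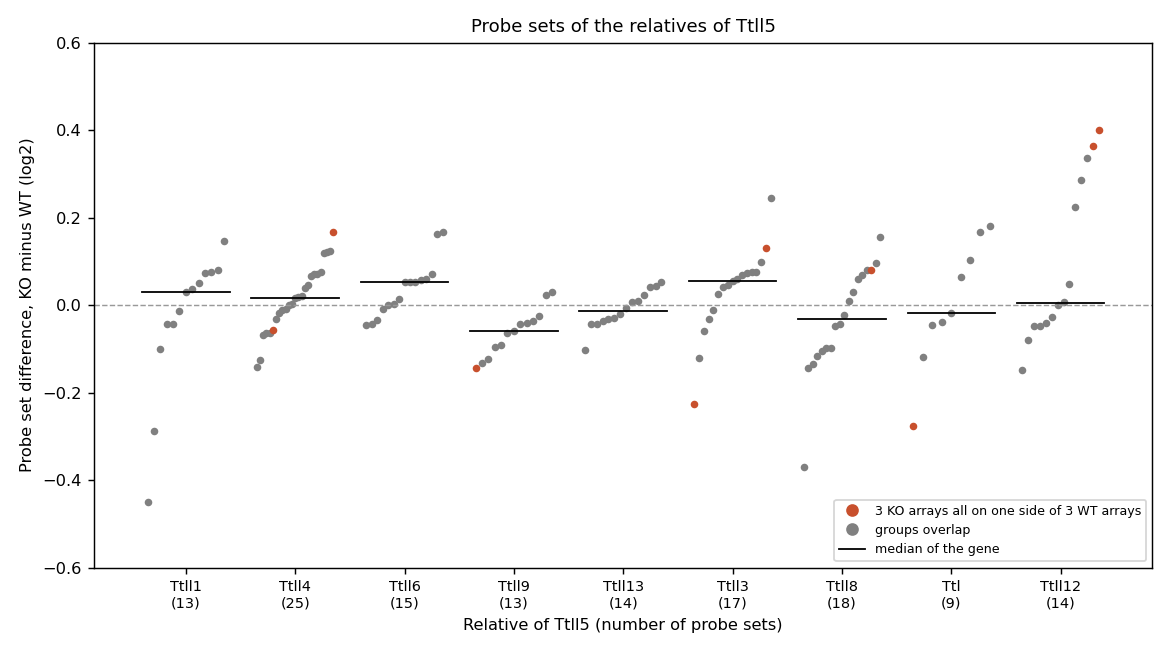
KO minus WT (log2) of each of the 138 probe sets of the 9 relatives, with the median of each gene. Points are coloured where the 3 KO arrays all lie on one side of the 3 WT arrays, which held for 9, and every point lies between -0.45 and 0.40.

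Genes that overlap a family member in the RefSeq annotation (GRCm38.p6) could share signal, as the strand of the probes was not checked. Erg28, a sterol synthesis scaffold that overlaps Ttll5, was 8.25 ± 0.047 in WT and 8.23 ± 0.12 in KO (SD, n = 3 each). The fall of Ttll5 was not seen in the mean of the 7 Erg28 probe sets (difference -0.019, limma adjusted p = 0.99). These 7 were not read one by one. Arpc4, an actin nucleation subunit overlapping Ttll3, differed by 0.043, Dusp15, a phosphatase overlapping Ttll9, by -0.10 and Calcoco2, an autophagy receptor overlapping Ttll6, by 0.032. None of these 3 passed, beside 0.0697% of all genes, with limma adjusted p-values of 0.92 to 0.99.

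The partners and counterparts of these enzymes were read in the same way, from lists of tubulin-code genes and steroid receptor partners. Over all 8 lists 35 of 48 genes were measured, 16 higher and 19 lower in KO. Of these, 0 passed the threshold, beside 0.0697% of all genes, and 1 had an unadjusted limma p under 0.05, beside 6.05%. Counts of 0 calls in these lists, here and below, do not stand apart from the share over all genes. In 4 of the 35, or 11.4%, the groups did not overlap, a share near the 11.2% of all genes. The median difference was -0.0091, beside -0.0026 over all genes.

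Subunits that hold and target Ttll1 gave no call in 4 of 4 measured. Tpgs1 differed by -0.082, Tpgs2 by 0.019, Lrrc49 by -0.022 and Nicn1 by -0.034, and Tpgs2, with 3 probe sets, had a wide interval (-0.37 to 0.41). Among the deglutamylases, which cut glutamates off, 1 of 5 was higher and 4 lower, again with no call. Agtpbp1 differed by -0.027 and Agbl5, which removes the branching glutamate, by -0.0091, and the largest difference was that of Agbl3 at -0.11 (interval -0.31 to 0.087).

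Vash1, a carboxypeptidase that removes the tyrosine which Ttl adds, was the gene of these lists with the lowest p. It read 6.09, 6.16 and 6.16 in WT against 6.36, 6.45 and 6.31 in KO, with all KO arrays above all WT arrays. The difference was 0.24 (interval 0.072 to 0.40, unadjusted p = 0.010), and it did not pass (limma adjusted p = 0.65). Vash1 lies on chromosome 12, as does Ttll5. Vash2, its relative, differed by -0.024. Svbp, the chaperone both need, differed by -0.097 (unadjusted p = 0.27, limma adjusted p = 0.93). The highest KO array of Svbp, at 10.416, lay just under its lowest WT array, at 10.419, and KO 1 was lower at 10.19.

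The substrates gave no call either. Of alpha tubulins 3 of 8 were measured and differed by -0.042 to 0.11, and of beta tubulins 6 of 8, by -0.12 (Tubb6) to 0.11 (Tubb5). Tubulin genes are close copies of each other, so shared signal between them is uncertain. In the acetylation list Atat1, the tubulin acetylase, differed by -0.049, Hdac6 by 0.030 and Sirt2 by 0.15 (interval -0.21 to 0.51). Severing enzymes of the katanin and spastin group, which respond to glutamylation, differed by -0.10 (Katna1) to 0.13 (Fign), with 0 of 5 past the threshold.

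STAMP was named for the coactivators it binds, Ncoa1 (SRC-1) and Ncoa2 (TIF2). Ncoa1 differed by -0.097 (interval -0.30 to 0.10) and Ncoa2 by 0.040 (interval -0.16 to 0.25). The third of that family, Ncoa3, differed by 0.084, and the receptors Nr3c1, Esr1 and Pgr by -0.053, 0.081 and 0.11. None of the 6 passed.

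**Figure D4:**
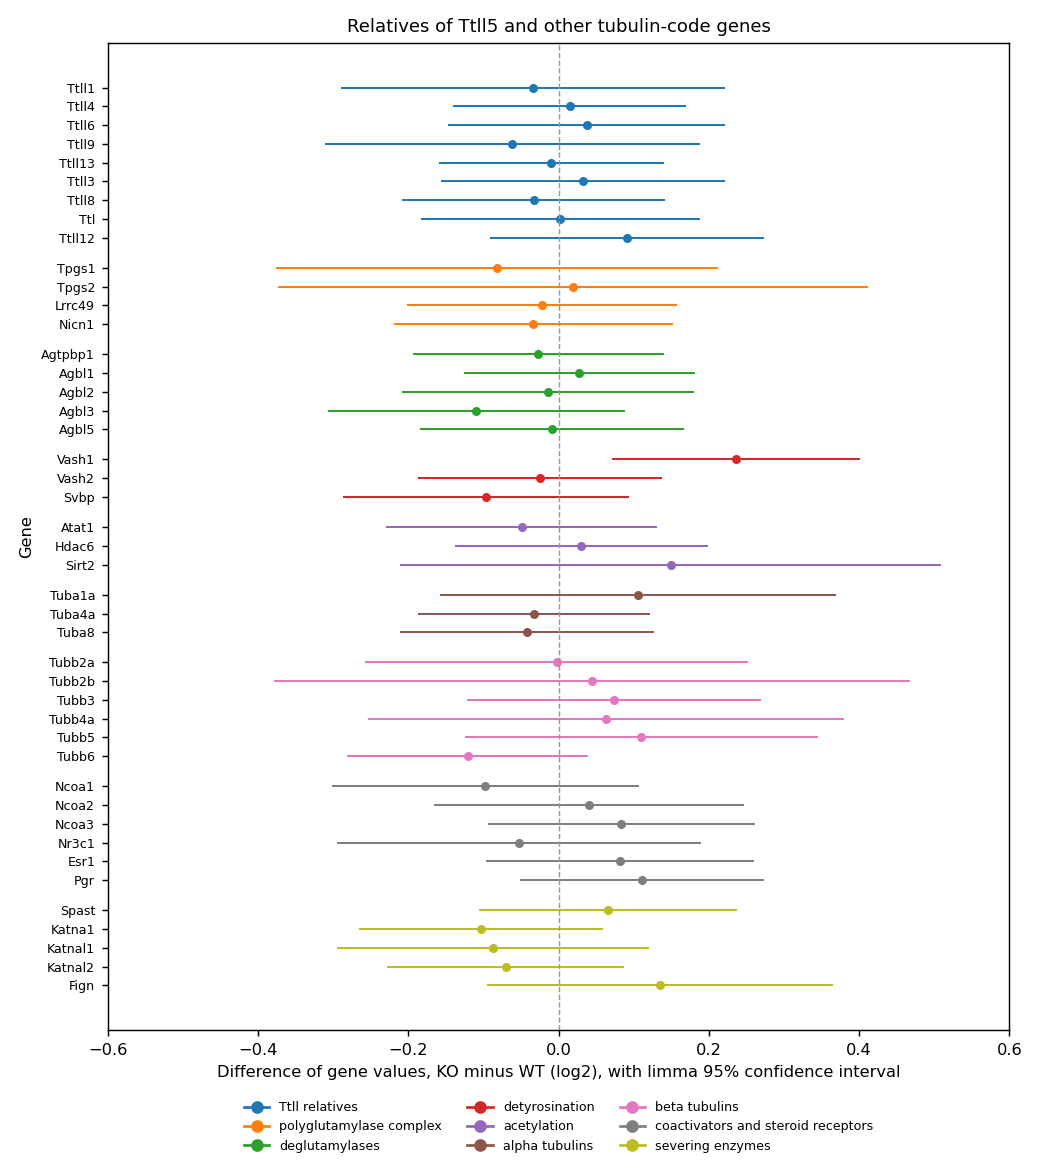
Difference of gene values, KO minus WT (log2), with limma's 95% confidence interval, for the 9 relatives of Ttll5 and 35 genes of the other lists. Every interval but that of Vash1 (0.072 to 0.40) spans 0, and Ttll5 itself, at -1.62, lies outside the axis and is not drawn.

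Markers of the cells that could carry these transcripts gave no call, and those of Leydig cells differed most. All 5 measured Leydig markers were higher in KO, 4 with groups that did not overlap (11.2% of all genes did not), and the mean level of the list was 9.61 to 9.97 in WT and 10.19 to 10.29 in KO. None passed the gene test, which 0.0697% of all genes passed (lowest limma adjusted p = 0.45). Of the 8 spermatid markers 7 were lower in KO, with a median of -0.096 and levels of 12.37 to 12.43 in WT and 12.28 to 12.34 in KO. In 4 of them, Tnp1, Tnp2, Spaca1 and Akap4, every KO array lay below every WT array, and Tnp1 had the lowest p (difference -0.19, unadjusted p = 0.042, limma adjusted p = 0.81). All 6 spermatocyte markers were lower, by a median of -0.075, although 2 turned higher after quantile normalization and 1 with arrays centred on their median, and 0 of these 14 passed. Medians were -0.072 for 5 spermatogonial, -0.0079 for 5 Sertoli, 0.077 for 4 myoid and 0.079 for 4 macrophage markers. The part of cell composition in the Ttll values was not tested.

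The genes whose pattern over the 6 arrays was nearest to that of Ttll5 were found by the root mean square distance between values centred on each gene's own mean. They were Nme6 (0.28), Abhd14a (0.33), Arg2 (0.38), Pik3r4 (0.49) and Pcdhgb4 (0.50), with differences of -1.07, -0.99, -0.95, -0.65 and -0.70. Nme6, Abhd14a and Pik3r4 lie on chromosome 9 and Arg2 on chromosome 12 with Ttll5, and the list is a description of the 6 arrays. The 9 relatives stood at distances of 0.79 to 0.86 from Ttll5. The KO minus WT difference itself shapes this distance. The nearest genes and the relatives' distances therefore largely restate the differences and are no separate evidence.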

How the data were processed

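The authors deposited a table of log2 probe set values for 6 exon arrays, and the submitters' processing notes name RMA and Partek 6.5 without saying which did what. RMA makes arrays alike, so a shift of most genes would not show. Values were used as deposited. Probe sets named genes through the platform annotation, of which 1322 with several symbols and 8105 with none were left out of gene values. RefSeq (GRCm38.p6) gave current names, chromosomes and overlaps only, and of the 15792 symbols 13716 were current, 2039 older names and 37 unmatched. Genes are printed under current names.

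The contrast of KO and WT was fitted with limma 3.58.1 under R 4.3.3 (lmFit, eBayes), without covariates, on gene means, on probe sets and on each probe set minus the mean of the rest of its gene, and the steps were tested on simulated data. The labels give 3 biological replicates per group, and the p-values reflect only how these 6 samples vary. Members and lists were chosen with earlier results of these data known. Every member was named, with single probe sets of some members, some genes of the lists and the 5 nearest profiles. Not every probe set with separated groups was named. Alternatives changed the gene summary, dim filters (25th percentile of probe sets, 40th of genes), normalization, moderation, weights, a covariate, the replicate block and each array.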

Additional observations from a re-analysis of the deposited data

How the results depend on the processing

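Across 16 alternatives the Ttll5 difference ran from -1.64 to -1.36 and passed limma's threshold in each (adjusted p of 0.0065 at most). Of the 9 relatives 0 were called under these 16, and of their probe sets 0 were called or departed under the 14 alternatives that apply to probe sets. The relatives' 142 alternative differences ran from -0.14 to 0.13, with 0 at an unadjusted p under 0.05 (lowest limma adjusted p = 0.80). Ttl and Ttll12 were below the filter on dim genes. The called Ttll5 probe sets, 19 in the main setting, were 33 with trended and robust moderation, 1 without moderation, 3 with the lower quartile as covariate, 2 with the replicate block and 2 to 3 with 1 array left out. Departing Ttll5 probe sets were 1 without moderation. Over all genes, 11 calls became 5 with the median of probe sets, 7 without dim genes, 20 with trended and robust moderation and 2 without moderation. Over all probe sets, 72 became 125, 3, 32 and 7 with trended moderation, no moderation, the covariate and the replicate block, and 13 to 37 with 1 array left out. The cause of these moves was not tested.

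Differences near 0 turned sign in 20 of the 142. With the median of probe sets Ttll1 stood at 0.048, Ttll3 at -0.061 and Ttll12 at -0.033. Ttl stood at -0.018 without dim probe sets, -0.011 after quantile normalization and -0.030 with the covariate, and Ttll13 at 0.0021 after quantile normalization. With 1 array left out the ranges were -0.14 to 0.050 for Ttll1, -0.015 to 0.033 for Ttll4, -0.015 to 0.10 for Ttll6, -0.14 to 0.026 for Ttll9, -0.024 to 0.0072 for Ttll13, -0.023 to 0.10 for Ttll3, -0.076 to 0.0021 for Ttll8, -0.029 to 0.060 for Ttl and 0.039 to 0.13 for Ttll12.

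Same-numbered WT and KO arrays correlated in their deviations from group means at -0.17, 0.072 and 0.18. No label ties a number to a litter, so the numbers were not taken as pairs, and whether same-numbered arrays share a litter is not known here. With the replicate block the Ttll5 gene difference was -1.62 (limma adjusted p = 0.0012) and 9 genes were called. Of the 5 nearest profiles, 4 were also nearest without dim genes.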
